A study of Sus scrofa with 4 samples.

Results

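Gene expression in porcine mature adipocytes (pMA) stimulated with serotonin was set directly against that in pMA stimulated with TNF-α. The comparison used 2 of the 4 arrays of the series, 1 for each stimulus, so that the array of unstimulated pMA did not enter the ratio. The pMA were made from the porcine intramuscular preadipocyte (PIP) line, which was derived from marbled longissimus muscle of a Duroc pig, by 4 days in a differentiation medium with insulin, dexamethasone, octanoate and oleate. For 12 h they were then kept with serotonin (5-HT) at 100 μM or with TNF-α at 2.5 µg/mL. The labels write the serotonin dose as an amount per ml. The other 2 arrays held unstimulated pMA and undifferentiated PIP cells, and their levels are given only beside the comparison. No culture time after differentiation is given for the unstimulated pMA, so a match to the 12 h of the stimuli is not known. RNA was pooled within each group before labeling, so each stimulus has 1 array and there is no replicate check, no error between cultures and no test. All cells came from 1 line, and the dexamethasone and insulin of the differentiation medium were common to the 3 groups of pMA. Of 20 adipocyte markers 17 had a ratio between the stimuli, but ADIPOQ, PLIN1 and AQP7, which define adipocytes, were not well above background with either stimulus. The name pMA is therefore used here as the study's name for these cells.

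Serotonin acts on a family of surface receptors, nearly all coupled to G proteins, and is also a tryptophan derivative. TNF-α binds TNF receptors, which activate NF-κB, a transcription factor that drives cytokine, chemokine, complement and adhesion genes and also the genes of its own inhibitors. Genes of 2 other regulators bear on the comparison: the aryl hydrocarbon receptor (AHR), a ligand-activated factor whose best known target is CYP1A1, and NRF2, which controls glutathione synthesis and detoxifying enzymes. In adipose tissue TNF-α is known as an inflammatory cytokine that opposes insulin.

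Each gene is read by 60-base probes whose sequences are in the scanner files. Probes of 5 genes that stand far apart between the stimuli show what was hybridised. The first belongs to CYP1A1, which was bright with serotonin, and the others to genes that were bright with TNF-α. For CYP1A1 and CHI3L1 the probe shown is not the brightest of its gene, whose values are given further on.
CYP1A1: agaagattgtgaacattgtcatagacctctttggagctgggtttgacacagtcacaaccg
C3: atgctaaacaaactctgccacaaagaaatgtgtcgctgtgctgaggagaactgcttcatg
CHI3L1: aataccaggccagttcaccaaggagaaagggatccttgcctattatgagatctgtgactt
SAA3: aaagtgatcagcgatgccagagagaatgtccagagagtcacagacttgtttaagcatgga
TNFAIP3: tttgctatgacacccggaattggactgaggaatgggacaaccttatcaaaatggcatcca

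The aldo-keto reductases of the AKR1C family, enzymes of steroid and aldehyde reduction, are close copies, and their probes are shown because AKR1C1 and LOC733635 cannot be read as separate genes. In the probes of AKR1C1 and of the family member named LOC733635 on the array, 34 of the 35 bases over which they overlap are the same, and these are in capitals. The AKR1C4 probe matched them at only 29 of 46 and 27 of 50 bases in the best overlap without gaps.
AKR1C1: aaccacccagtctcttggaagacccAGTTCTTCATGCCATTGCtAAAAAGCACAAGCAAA
LOC733635: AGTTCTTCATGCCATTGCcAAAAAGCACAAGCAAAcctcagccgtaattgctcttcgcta
AKR1C4: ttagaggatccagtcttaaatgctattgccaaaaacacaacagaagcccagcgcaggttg

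Levels are log2 intensities relative to the 75th percentile of the array, and log2 ratios are serotonin minus TNF-α, so a positive ratio is a higher level with serotonin. Of the 43603 probes, 61.0% were well above background with serotonin and 66.1% with TNF-α, and the intensity that served as reference was 566 and 559. For a probe that cleared the background on just 1 of the arrays, the fold is given as "at least". A dim value below the faintest signal well above background on that array was raised to that signal. Its level was -5.78 for serotonin and -5.63 for TNF-α. A dim value already above that level was kept as measured, as for CYP1A1, NOS2, PBK, TOP2A and CCL4, among others. Such a fold rests on a signal not told apart from background and is not a strict limit. A ratio was obtained for 21946 of 34853 gene names, and 12870 were dim on both arrays. Repeated spots of 1 probe had a standard deviation of 0.11 on the serotonin array and 0.12 on the TNF-α array, hence 0.16 for a log2 ratio, which covers the noise of spots within arrays only.

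The arrays differed in more genes that were brighter with TNF-α than with serotonin. Of the 21946 gene names, 1956 (8.91%) were at least 2-fold apart, with 438 (2.00%) higher with serotonin and 1518 (6.92%) higher with TNF-α. A lower bound stood behind 96 and 655 of these, and 51 and 259 were at least 4-fold apart. The split depended on the scaling, since scaling to each array's median gave 653 higher with serotonin and 1121 higher with TNF-α, and quantile normalization 649 and 1085. With median scaling the median log2 ratio of all gene names moved from -0.05 to 0.08. Among the 5681 gene names that are symbols, 125 (2.20%) were at least 2-fold higher with serotonin and 418 (7.36%) with TNF-α, and their median was 0.03. The lists below are read against these shares.

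**Figure D1:**
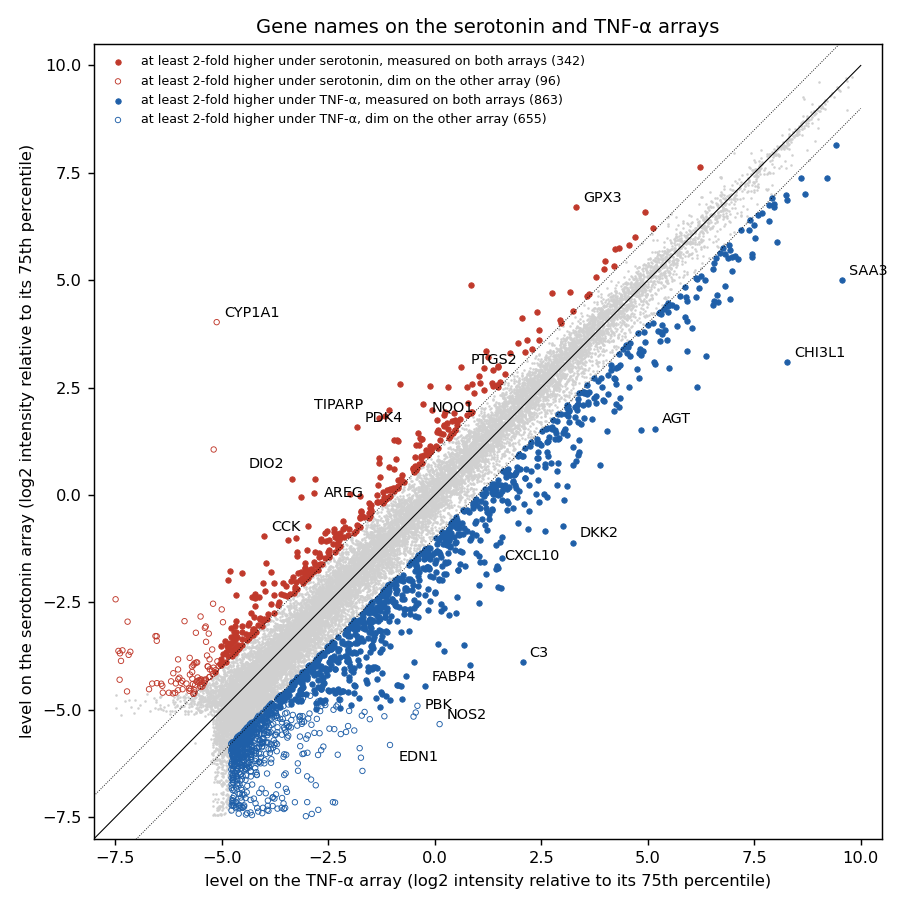
Level of each gene name with a ratio on the TNF-α array (x axis) and on the serotonin array (y axis), both as log2 intensity relative to the 75th percentile. The dotted lines mark 2-fold. Red points are the 342 names at least 2-fold higher with serotonin and blue points the 863 names at least 2-fold higher with TNF-α that were measured on both arrays, and open circles are lower bounds, drawn at the dim value as measured. Gray points were under 2-fold apart. CYP1A1 lies far to the upper left, and C3, NOS2, CHI3L1 and SAA3 are among the names far to the lower right.

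Dim probes shifted towards TNF-α. When gene names were split by level into 6 groups, the median log2 ratio was -0.42 in the dimmest group, with 80 names higher with serotonin and 549 with TNF-α, and between -0.02 and 0.08 in the 4 brightest groups. RNA added in known amounts before labeling moved in the same way: the 7 bright spike-ins lay between -0.10 and 0.00, but the 3 dim ones lay between -0.62 and -0.43. Among the brighter 10973 gene names, 210 were higher with serotonin and 550 with TNF-α. Below, a brighter gene is one of these 10973 names. The part of this shift in the ratio of any single dim gene was not tested. Lower bounds are the least certain ratios, since 16 of the 23 bounds named in the text or its lists came under 2-fold after normexp background correction, among them RGS5, SLC34A2, THBD, PSD, KCNE1, CCL4, ABCC2, CASP1, BCL2A1, LYZ and CD34.

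**Figure D2:**
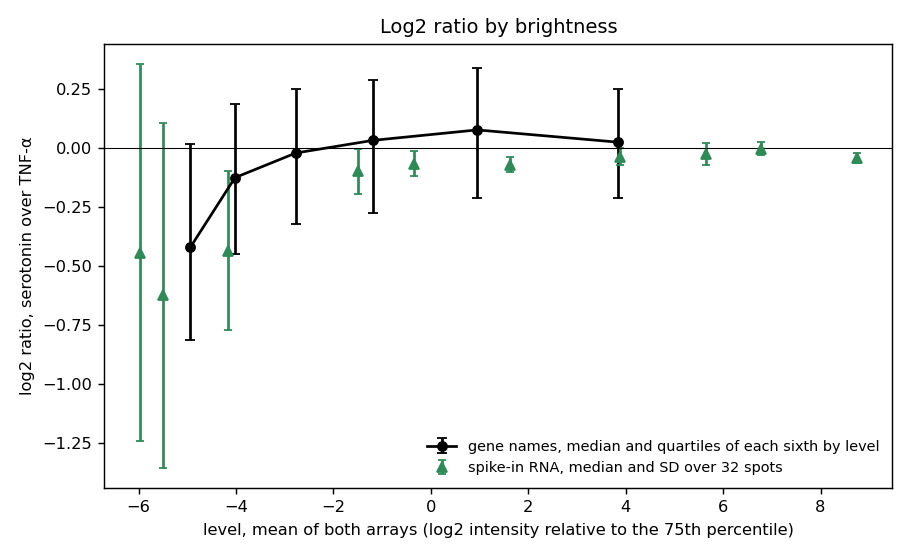
Log2 ratio of serotonin over TNF-α (y axis) against the mean level on both arrays (x axis). Black points are the medians of 6 groups of gene names, with bars between the lower and the upper quartile, and green triangles are the 10 spike-ins, with bars of 1 standard deviation over 32 spots. The dimmest group has a median of -0.42 and the 3 dim spike-ins lie between -0.62 and -0.43, whereas the 7 bright spike-ins lie between -0.10 and 0.00.

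Genes used as references were close to equal. ACTB, beta-actin, had a level of 9.27 with serotonin and 9.38 with TNF-α, and ACTB and the glycolytic enzyme gene GAPDH each had a log2 ratio of -0.11. The 4 probes of ACTB ranged from -1.64 to -0.07 in ratio. None of 16 reference genes and none of 48 ribosomal protein genes was 2-fold apart, and the medians of these lists were -0.09 and 0.02.

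Genes of the AHR battery were higher with serotonin. Of 13 on the array, 10 had a ratio, 5 were at least 2-fold higher with serotonin and 1 with TNF-α, and the median log2 ratio was 1.04. CYP1A1, a cytochrome P450 that oxidises aromatic compounds, had a level of 4.03 with serotonin, but was not well above background with TNF-α (-5.12) or in unstimulated pMA (-5.32). With the dim TNF-α value taken as measured, it was 566-fold higher with serotonin, a log2 ratio of 9.14 that was 6.63 in another setting. Its other probe, the one printed above, also gave a bound, with a level of 2.48 against -6.70. The paper's RT-qPCR went the other way from the array, with CYP1A1 reported as significantly lower than control after both stimuli. Its microarray results listed CYP1A1 as higher after serotonin and unchanged after TNF-α. TIPARP, an ADP-ribosyltransferase that limits AHR activity, had 1.79 with serotonin, -1.30 with TNF-α and -1.29 without stimulation, a ratio of 3.09. UGT1A6, which joins glucuronic acid to phenols, had 0.84, -0.91 and -2.84 in the same order, so that both stimulated arrays lay above the unstimulated array and serotonin 3.38-fold above TNF-α. The other 2 high members were NQO1, at 2.40, and PTGS2, at 2.36, which other regulators also induce.

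The exception in the AHR list was STC2, a secreted glycoprotein, at 2.06 with serotonin, 4.33 with TNF-α and 3.81 without stimulation. CYP1A2, with a ratio of -0.37 and levels of -3.35 and -2.99, did not follow CYP1A1. A gene name described in the files as cytochrome P450 1B1, TC539873, had a level of 4.88 with serotonin, 0.86 with TNF-α and 1.48 without stimulation, 16.3-fold apart by its 1 probe. It was singled out after its value was seen.

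Genes of NRF2 and glutathione metabolism were also mostly higher with serotonin. Of 34 on the array, 32 had a ratio, 25 of them above 0, and 10 were at least 2-fold higher with serotonin against 3 with TNF-α. The median was 0.59. GCLC, the catalytic subunit of the enzyme that limits glutathione synthesis, had -0.05 with serotonin, -3.13 with TNF-α and -2.59 without stimulation. NQO1, a quinone reductase, had 2.12, -0.28 and -0.41 in that order, and its 3 probes lay between 2.37 and 2.43. GPX3, a secreted glutathione peroxidase, had 6.70, 3.32 and 4.21, with 4 probes between 3.08 and 3.38.

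The remaining NRF2 members at least 2-fold higher with serotonin were TXNRD1, thioredoxin reductase, at 1.65, PTGR1 at 1.54, AKR1C4 at 1.43, GSR, glutathione reductase, at 1.39, MGST1 at 1.36, GCLM, the modifier subunit of GCLC's enzyme, at 1.24, and AKR1C1. HMOX1, heme oxygenase, had a ratio of 0.69 and stayed under 2-fold. Higher with TNF-α were the glutathione peroxidases GPX1, at -1.01, and GPX2, at -1.42, and the exporter ABCC2, by at least 2.98-fold. In all 10 members higher with serotonin, unstimulated pMA lay nearer to the TNF-α array.

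The AKR1C probes split by transcript. The brightest AKR1C1 probe had 2.58 with serotonin, -0.82 with TNF-α and -1.15 without stimulation, and the 3 probes of that transcript ranged from 3.40 to 5.76 in ratio. The AKR1C1 probe printed above is another of these 3, at 1.14 with serotonin and -4.41 with TNF-α. The bases of the brightest probe were not compared. Of 3 probes of another transcript under the same name, 2 were dim on both arrays and the other gave -0.48. The LOC733635 probe printed above had 1.06 against -5.19, at least 76.2-fold, whereas its second probe had a bound of 0.62. With the bases that the printed probes share, AKR1C1 and LOC733635 are uncertain as separate genes.

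**Figure D3:**
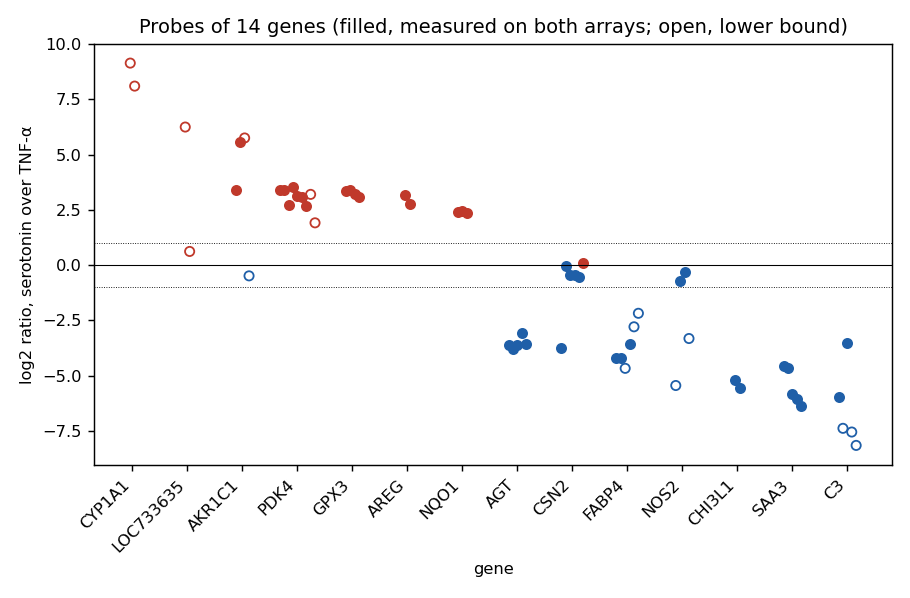
Log2 ratio of serotonin over TNF-α (y axis) for each probe of 14 genes (x axis). Filled points were measured on both arrays and open points are lower bounds, red above 0 and blue below. The probes of PDK4, GPX3, NQO1, AGT and CHI3L1 lie together, and those of AKR1C1, LOC733635, CSN2 and NOS2 do not.

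Other large ratios toward serotonin, taken by size and not by function, were those of single genes. DIO2, the deiodinase that activates thyroid hormone, had 0.38 with serotonin, -3.36 with TNF-α and -2.53 without stimulation, 13.4-fold apart by 1 probe. AREG, amphiregulin, an EGF receptor ligand, had 0.38, -2.82 and -1.30. SPRY1, an inhibitor of growth factor signaling, had a ratio of 2.41. The peptide hormone gene CCK had a ratio of 3.06, and SCG5, a chaperone of hormone processing, 2.72. RGS4, an inhibitor of G protein signaling, had 2.53, -0.12 and 0.65, and its relative RGS5 was at least 6.46-fold higher with serotonin. The transcription factor gene OSR2 had 2.27 by its brightest probe and 0.11 by the other. Among lower bounds, the phosphate transporter SLC34A2 was at least 5.29-fold and PSD, an exchange factor, at least 4.98-fold higher with serotonin, but a second SLC34A2 probe gave -1.17.

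Prostaglandin genes went in both directions. PTGS2, the inducible cyclooxygenase, had 2.98 with serotonin, 0.62 with TNF-α and -0.31 without stimulation, and PLA2G4A, which releases arachidonic acid, had 3.54, 1.95 and 2.01. PTGR1, which acts in prostaglandin breakdown, had 4.73, 3.18 and 3.11. Higher with TNF-α were 3 others. PTGES, prostaglandin E synthase, had 5.82 and 6.90, PTGDS, prostaglandin D synthase, -1.40 and -0.16, and PTGIR, the prostacyclin receptor, -1.35 and 0.98. Of 20 genes with a ratio, 3 were at least 2-fold higher with each stimulus, and the median was -0.07, or 0.20 among the 15 brighter genes.

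Glucocorticoid-responsive genes showed PDK4 far apart from the others. PDK4, a kinase that holds back pyruvate oxidation, had 1.59 with serotonin, -1.82 with TNF-α and -0.32 without stimulation, so that the unstimulated array lay between the others. All 9 of its probes were higher with serotonin, from 1.92 to 3.52. KLF9, another gene of this list, had a ratio of 1.30 with 10 of 10 probes above 0. Against these, 4 genes were 2-fold or more higher with TNF-α, among them NFKBIA, LCN2 and the cortisol-regenerating enzyme HSD11B1. The list of 18 genes had a median of 0.22.

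Acute phase genes went in both directions, with the largest ratios toward TNF-α. SAA3, a serum amyloid A named LOC733603 on the array, had 5.00 with serotonin, 9.56 with TNF-α and 3.87 without stimulation, and its 5 probes ranged from -6.39 to -4.56, 2 of them with the same sequence. CHI3L1, a chitinase-like protein released in inflammation, had 3.10, 8.28 and 3.04, 36.3-fold higher with TNF-α. Here the serotonin array lay at the unstimulated level. ITIH4 had a ratio of -2.96 and LCN2, lipocalin 2, of -1.19. The calgranulins S100A8 and S100A12, also on this list, went the other way, at 2.40 and 2.25, with S100A8 at -1.58 with serotonin, -3.97 with TNF-α and -3.33 without stimulation. Of 16 genes with a ratio, 5 were at least 2-fold higher with TNF-α and 2 with serotonin, and of the 4 brighter ones 2 were higher with TNF-α.

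Complement genes were higher with TNF-α in 8 of 22 genes with a ratio and in none with serotonin, and the median was -0.51. C3, the protein on which all complement pathways converge, had -3.89 with serotonin, 2.06 with TNF-α and -4.03 without stimulation, 61.9-fold apart, with 5 of 5 probes higher with TNF-α. CFB, its partner in the alternative pathway, had -2.52, 1.03 and -4.16. The inhibitor SERPING1, at -2.29, and the proteases C1S, at -2.14, and C2, at -1.98, followed. In 6 of the 8 genes, unstimulated pMA lay nearer to the serotonin array. A2M, an inhibitor of many proteases, had -0.84 with serotonin, 2.59 with TNF-α and 1.81 without stimulation, a gene where serotonin lay below the other arrays.

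NF-κB feedback genes showed a graded order. TNFAIP3, the A20 protein that ends NF-κB signaling, had -3.71 without stimulation, -1.46 with serotonin and 1.58 with TNF-α. NFKBIA, which holds NF-κB in the cytoplasm, had 4.55, 6.51 and 7.59 in the same order. SOD2, the mitochondrial superoxide dismutase, had 2.97, 4.50 and 6.65, with 7 of 7 probes higher with TNF-α. These 3 genes were thus brighter on the serotonin array than on the unstimulated array, and brighter still with TNF-α. TNIP1, at 0.02 with serotonin, 1.41 with TNF-α and -0.15 without stimulation, was the other of the 4 genes of 13 at least 2-fold higher with TNF-α, and none was with serotonin. The subunits RELA and NFKB1 stayed under 2-fold, at -0.20 and -0.80.

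Chemokine genes were higher with TNF-α in 9 of 24 genes with a ratio, with 22 below 0 and a median of -0.68, and in 5 of the 10 brighter ones. CXCL16, named SR-PSOX on the array, had 3.24 with serotonin, 6.37 with TNF-α and 3.53 without stimulation. CXCL10, a ligand that draws T cells, had -1.64, 1.45 and -0.50. CXCL12 had a ratio of -2.37 by its brighter probe and -0.12 by the other, and CCL4 was at least 3.89-fold higher with TNF-α. CXCL14, at 1.63, was the only chemokine at least 2-fold higher with serotonin.

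Cytokine genes did not follow the chemokines. Of 20 interleukin and colony-stimulating factor genes with a ratio, IL6, which drives the acute phase response, was at least 2-fold higher with TNF-α, at 0.35 with serotonin, 2.42 with TNF-α and 0.79 without stimulation. IL1A had 2.99, 1.49 and -0.79 in that order, so both stimuli lay above the unstimulated level and serotonin above TNF-α. IL16, at 1.55, and SOCS3, an inhibitor of cytokine signaling, at 1.15, were the other 2 higher with serotonin. The TNF gene itself had a ratio of 0.11. NOS2, the inducible nitric oxide synthase, was dim with serotonin and at least 43.6-fold higher with TNF-α by its brightest probe, but 2 other probes measured on both arrays gave -0.71 and -0.29.

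The interferon-stimulated genes had a median of -1.26, the lowest of the 41 lists, although among brighter genes alone the 4 left of the acute phase list had a lower one, -2.47. Of 32 genes with a ratio, 21 were at least 2-fold higher with TNF-α, none with serotonin, and 30 were below 0. Among the 30 brighter genes of the list 20 were at least 2-fold higher with TNF-α. RSAD2, or viperin, had -0.37 with serotonin, 2.22 with TNF-α and 1.99 without stimulation. OAS1, a sensor of double-stranded RNA, had 0.55, 2.87 and 2.42, and GBP1, a guanylate-binding protein, 0.02, 2.38 and 2.14. PARP14 had -2.67, -0.15 and -1.41. In 16 of 20 genes measured on both arrays, unstimulated pMA lay nearer to TNF-α, so that the low array for this list was mostly that of serotonin. In PIP cells RSAD2 had 4.28 and OAS1 4.47, above all 3 pMA arrays.

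Antigen presentation genes were higher with TNF-α in 5 of 19 genes, with none higher with serotonin and a median of -0.52. PSMB9 and PSMB8, subunits of the immunoproteasome, had ratios of -1.65 and -1.23, PSME2, an activator of the proteasome, -1.20, and the MHC class I gene SLA-3 -1.10 with 7 of 7 probes below 0. In contrast to the antiviral genes, the unstimulated level of all 5 lay nearer to the serotonin array.

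**Figure D4:**
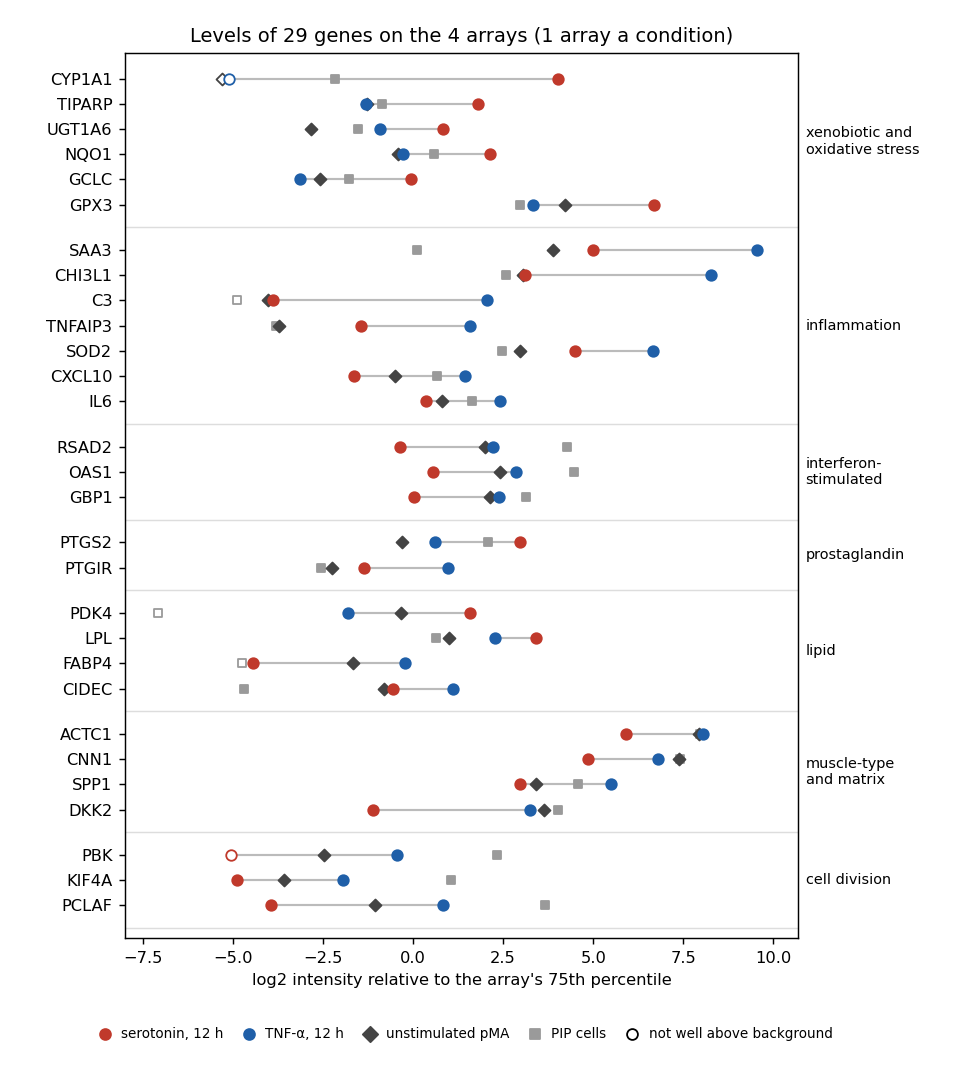
Levels of 29 genes on the 4 arrays (x axis, log2 intensity relative to the 75th percentile of the array), grouped by function. Circles are the serotonin (red) and TNF-α (blue) arrays joined by a line, diamonds unstimulated pMA and squares PIP cells, with open symbols where the probe was not well above background. For CHI3L1 and C3 the red circle sits beside the diamond, and for RSAD2, OAS1, GBP1, ACTC1 and DKK2 the blue circle does.

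Adhesion and coagulation genes were also higher with TNF-α. Among 24 adhesion genes, 7 were at least 2-fold higher with TNF-α and none with serotonin, with a median of -0.29, and of the 15 brighter ones 4 were. VCAM1, which binds leukocytes, was dim with serotonin and at least 7.42-fold higher with TNF-α, and ICAM1, named ICAM-1 on the array, had 4.66 with serotonin, 6.63 with TNF-α and 4.87 without stimulation. SELP, P-selectin, had a ratio of -2.07, and ITGAV, an integrin subunit, -1.61 with 7 of 7 probes below 0. Of the 5 adhesion genes measured on both arrays and higher with TNF-α, 4 had an unstimulated level nearer to TNF-α. Only 1, ICAM1, was nearer to serotonin. Of 19 coagulation genes, 4 were higher with TNF-α. They included PLAU, the urokinase that activates plasminogen, at -1.04. F5 had -1.10. PROCR had -2.97 by its brightest probe, whereas its 2 other probes went the other way, up to 1.25. THBD, thrombomodulin, was at least 5.08-fold higher with serotonin by the 1 of its 3 probes that gave a ratio.

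Receptor and cell death genes were mixed. Of 29 genes, 5 were at least 2-fold higher with serotonin: BAX, at 1.18, PMAIP1, at 1.02, the death receptor gene TNFRSF21, at 1.18, and the survival genes BCL2L1, at 1.18, and BCL2L2, at 1.04. Of 6 higher with TNF-α, CASP1 and BCL2A1 were lower bounds of at least 6.53-fold and 5.91-fold, BIRC5 had -1.55 and TNFSF10, the ligand TRAIL, -1.39. TNFRSF1A, the main TNF receptor, had 4.76 with serotonin and 4.52 with TNF-α. Toll-like receptors split, with TLR1 at 1.02 and TLR2 at -1.80, and PGLYRP2, which binds bacterial cell wall, had -2.04. KCNE1, a potassium channel subunit, was at least 8.65-fold higher with TNF-α by its brighter probe, with levels of -5.94 and -2.67, but its other probe gave -0.32.

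Serotonin's own receptors could be compared only in part. Of 17 genes for receptors and serotonin metabolism, 7 were dim on both arrays, among them HTR2B, HTR2C and TPH2. The 10 with a ratio had a median of -0.30. Only 6 of them were measured on both arrays, with a median of 0.22, and the others were lower bounds. HTR3A, the ion channel receptor, had 6.95 with serotonin and 6.91 with TNF-α, and HTR2A had 1.72 and 1.51. MAOA, which breaks down serotonin, had 3.08 and 2.84. HTR1B, at -2.94 and -1.74, was the only member whose ratio reached 2-fold. A bound under 2-fold does not show that a gene was less than 2-fold apart.

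Contractile and cytoskeletal genes lay below 0 in 26 of 26 genes, with 11 at least 2-fold higher with TNF-α, none with serotonin and a median of -0.88. ACTC1, an actin of cardiac muscle, had 5.90 with serotonin, 8.04 with TNF-α and 7.93 without stimulation. CNN1, calponin of smooth muscle, had 4.86, 6.81 and 7.38, and ANKRD1, named CARP on the array, -0.20, 2.09 and 2.59. TES, a focal adhesion protein, had a ratio of -1.39. In all 11 genes unstimulated pMA lay nearer to TNF-α. LDB3, a protein of the muscle Z-disc, had -2.74, 0.51 and -0.03, and P311 had 1.52, 4.84 and 5.27 with 6 of 6 probes below 0.

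Matrix genes followed the same direction, with 8 of 29 higher with TNF-α and none with serotonin, and a median of -0.61. SPP1, osteopontin, had 2.96 with serotonin, 5.51 with TNF-α and 3.42 without stimulation. COL15A1 had a ratio of -2.04 with 8 of 8 probes below 0, VCAN, a large proteoglycan, -1.88, and TNC, tenascin, -1.85. SERPINF1, an antiangiogenic serpin of the protease inhibitor list, had 0.22, 3.11 and 3.18. CRISPLD1, a secreted protein, had -3.16.

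Ligands and antagonists of growth pathways went in both directions. DKK2, a secreted WNT antagonist, had -1.11 with serotonin, 3.24 with TNF-α and 3.62 without stimulation, 20.4-fold apart by 1 probe, while WNT5A, a ligand, had 0.86, -1.31 and -1.58. SFRP4, WNT2, named TC527657 on the array, and WIF1, named LOC100512657, were among 7 of 20 WNT genes higher with TNF-α, at -1.69, -1.58 and -1.39, and 5 of the 16 brighter WNT genes were. EDN1, endothelin, was dim with serotonin and at least 26.5-fold higher with TNF-α, with a level of -1.05 with TNF-α and -2.24 without stimulation. PTHLH, the parathyroid hormone-related protein, had -2.09, 1.04 and -0.78. Of the EGF receptor ligands, AREG was higher with serotonin but BTC, betacellulin, had -1.83. PDGFRA, a PDGF receptor, had -1.29 and IGF1 -1.16. TGFB3 had -1.82, and GDF15, a stress-induced member of the same superfamily, 5.72 with serotonin and 4.23 with TNF-α. The TGF-β superfamily list of 40 genes had a median of -0.01.

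Cell division genes were higher with TNF-α in 16 of 34 genes with a ratio and with serotonin in 1, CDKN2B, an inhibitor of the cycle, at 1.06. The median was -0.80. Of 12 members measured on both arrays and higher with TNF-α, 11 had an unstimulated level nearer to serotonin and 1, PCLAF, nearer to TNF-α. PCLAF, which binds the replication clamp and is named LOC100514810 on the array, had -3.96 with serotonin, 0.82 with TNF-α and -1.07 without stimulation. PBK, a mitotic kinase, was dim with serotonin (-5.06) and had -0.45 with TNF-α and -2.48 without stimulation, at least 24.5-fold apart with 4 of 4 probes below 0. TOP2A, named TOPOII, was at least 12.0-fold higher with TNF-α, and KIF4A, a mitotic kinesin, had -4.88, -1.96 and -3.58. CIT, citron kinase of cytokinesis, had -4.44, -0.79 and -2.36. PCLAF, PBK, TOP2A, KIF4A and CIT were dimmer on every pMA array than in PIP cells, where PBK had 2.33 and PCLAF 3.66. Many lay in the dim range, and among 21 brighter members of the list 7 were higher with TNF-α. MKI67, a common marker of dividing cells, had a ratio of 0.49. In pMA given serotonin at up to the dose used here, the paper reported significant dose-dependent cell death and decreased proliferation. The part of this in the levels of the serotonin array, for these genes or others, was not tested.

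Lipid genes split by gene. FABP4, the fatty acid binding protein of adipocytes, had -4.45 with serotonin, -0.23 with TNF-α and -1.68 without stimulation, and its 6 probes with a ratio were all below 0, from -4.67 to -2.18. By RT-qPCR the paper reported FABP4 as significantly lower than control after both stimuli, unlike the TNF-α array here. The paper's microarray results listed FABP4 as higher after both stimuli, unlike the serotonin array here. FABP5 had 4.13, 5.88 and 5.87, so serotonin was the low array there. The lipid droplet proteins CIDEA and CIDEC had ratios of -2.13 and -1.67, with CIDEC at -0.55, 1.11 and -0.82. Higher with serotonin were LPL, the lipase that frees fatty acids from lipoproteins, at 3.40, 2.27 and 1.00 with 5 of 5 probes above 0, and FITM2, which helps lipid droplets form, at 1.10. CD36, a fatty acid transporter, had 0.99. Of 32 genes, 2 were at least 2-fold higher with serotonin and 7 with TNF-α, and the median was -0.10. Of the 25 brighter ones 2 and 4 were, and their median was 0.19. The paper also reported that fat accumulation in pMA fell with the serotonin dose, measured at a later time than the arrays. Its relation to these lipid genes was not tested.

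Synthesis and oxidation of fatty acids differed little. Of 22 genes of lipogenesis and cholesterol synthesis, ACACA, acetyl-CoA carboxylase, was the only one 2-fold apart, at 1.35 by its brighter probe and 0.71 by the other. Of 23 genes of fatty acid oxidation, PDK4 was the only one. Among 29 adipogenic regulators and adipokines, AGT, angiotensinogen, had 1.54 with serotonin, 5.17 with TNF-α and 1.88 without stimulation, with 5 probes from -3.78 to -3.09. SLC2A4, the insulin-responsive glucose transporter, had -1.12. Their median was 0.02.

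Genes of glycolysis and amino acid supply lay mostly below 0 in ratio. LDHA, lactate dehydrogenase, had 6.39 with serotonin, 7.86 with TNF-α and 7.20 without stimulation, and HK2, hexokinase, and P4HA1, a prolyl hydroxylase often induced with glycolytic genes, had -1.30 and -1.31. ENO2, an enolase, went the other way, at 2.35 with levels of -2.33 and -4.67. The 20 genes had a median of -0.51, with 5 higher with TNF-α and 1 with serotonin. Of 18 genes of the amino acid starvation response, 5 were higher with TNF-α, including STC2, at -2.27, CHAC1, at -1.66, and PSAT1, of serine synthesis, at -1.17 with 5 of 5 probes below 0. The median was -0.49. In all 5 genes unstimulated pMA lay nearer to TNF-α. Of 31 steroid and xenobiotic enzyme genes, 4 were at least 2-fold higher with serotonin and 5 with TNF-α, and the median was -0.12. Higher with serotonin were CYP1A1, AKR1C1, UGT1A6 and AKR1C4. Of those higher with TNF-α, SULT1A1, a sulfotransferase, had a ratio of -2.06 and CYP11A1, which starts steroid synthesis, -1.49. Heat shock and chaperone genes had none of 23 at least 2-fold apart, and metallothionein and metal handling genes 1 of 21, STEAP3, a metal reductase, at -2.05.

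Respiratory chain genes had a median of 0.06 over 34 genes. NDUFAB1, at -3.13 by its 1 probe, and COX7A1, at -1.34, were the 2 at least 2-fold apart. The same caution on single probes holds for FCHO1, with -3.50, 0.69 and -4.34 and a ratio of -4.19. For the milk protein gene CSN2 the brightest probe gave -3.73, but the 5 other probes with a ratio lay between -0.52 and 0.09. The sequences of that probe and of a probe at -0.45 are shown because the value of this gene rests on which probe is read.
CSN2, ratio of -3.73: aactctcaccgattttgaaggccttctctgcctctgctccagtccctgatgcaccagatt
CSN2, ratio of -0.45: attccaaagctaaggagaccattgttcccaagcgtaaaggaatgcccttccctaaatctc

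Over all gene names at least 2-fold apart, 302 had several probes with a ratio. In 290 of them (96.0%) all probes pointed the same way, and in 189 (62.6%) all were at least 2-fold apart.

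**Figure D5:**
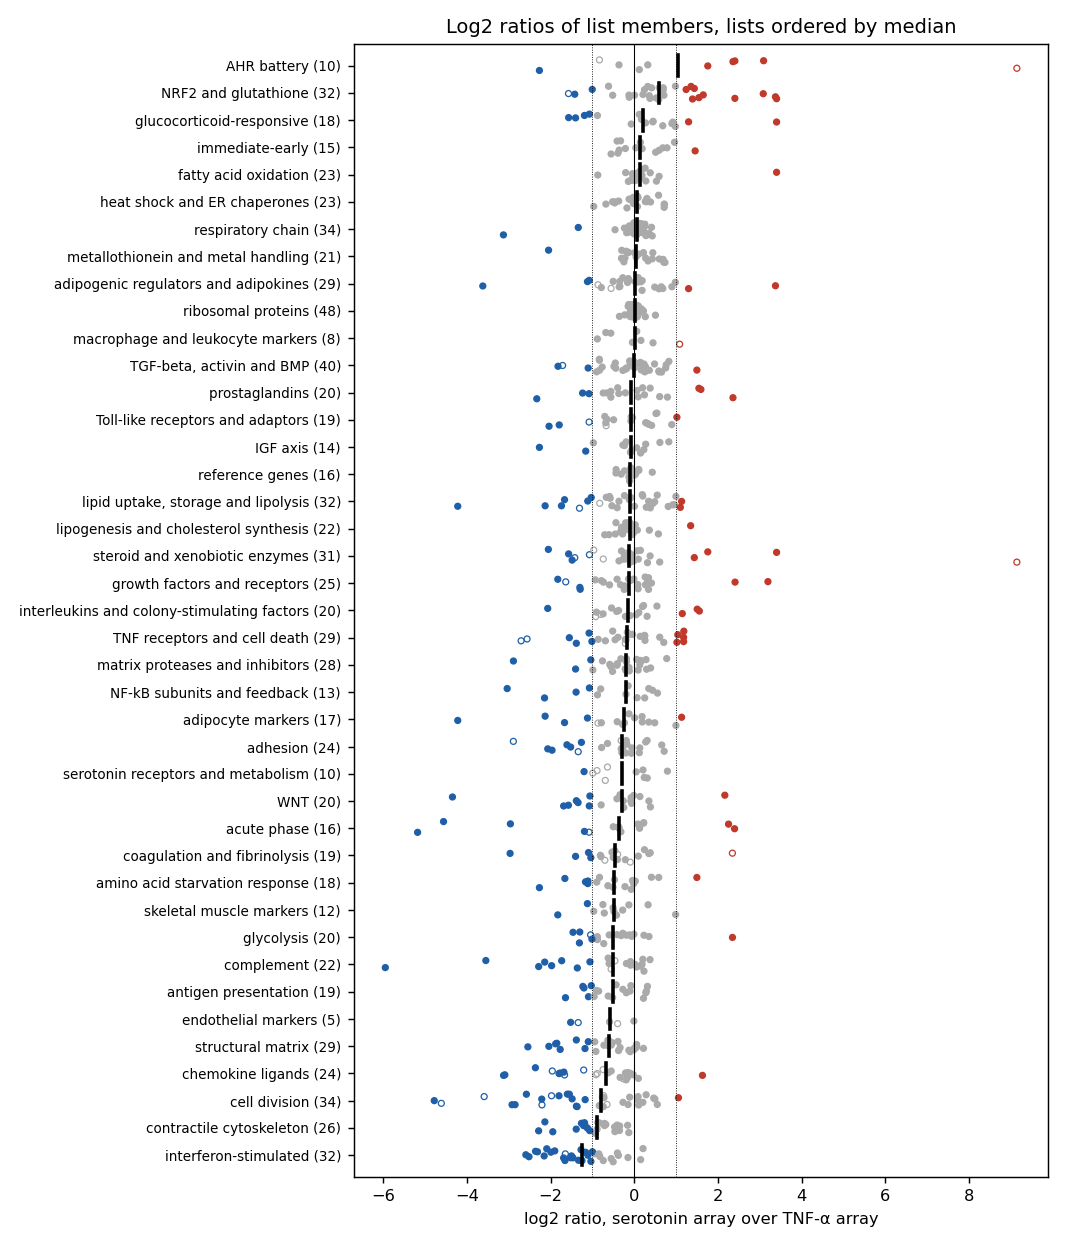
Log2 ratio of serotonin over TNF-α (x axis) of each member of 41 gene lists (rows, ordered by median, with the number of members with a ratio). Black bars are medians, red points at least 2-fold higher with serotonin, blue points at least 2-fold higher with TNF-α, gray points under 2-fold apart, and open points lower bounds. The AHR and NRF2 lists are at the top, with medians of 1.04 and 0.59, and the interferon-stimulated, contractile and cell division lists at the bottom.

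The position of unstimulated pMA differed between the directions. Of 342 gene names measured on both arrays and at least 2-fold higher with serotonin, 274 had an unstimulated level nearer to TNF-α and 68 nearer to serotonin. Of 863 higher with TNF-α, 542 were nearer to TNF-α and 321 nearer to serotonin. For most of the genes higher with TNF-α, the array farther from the unstimulated level was therefore that of serotonin, as for DKK2, ACTC1 and RSAD2. C3, CHI3L1 and SAA3 were of the other kind.

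Cell type markers were compared in the same way. Of 20 adipocyte markers, all on the array, 17 had a ratio, but ADIPOQ, PLIN1 and AQP7, which define adipocytes, were dim on both arrays. The 17 had a median of -0.24, with LPL higher with serotonin and FABP4, CIDEA, CIDEC and SLC2A4 higher with TNF-α, but the 10 brighter markers had a median of 0.19, with 1 higher with serotonin and 2 with TNF-α. Of 11 macrophage and leukocyte markers, CD163 and CD4 were among those dim on both arrays, 8 had a ratio with a median of 0.01, and LYZ, at least 2.12-fold higher with serotonin, was dim with TNF-α and had a probe that gave -0.55. Of 9 endothelial markers, CDH5, TEK, CLDN5 and NOS3 were dim on both, and PECAM1 had -1.52 and CD34 a bound of -1.34. Of 17 muscle markers, MYOD1, MYF5, MYF6, MYH2 and MB were dim on both, and ACTA1, skeletal actin, had 7.39 and 9.22 and DES, desmin, 2.23 and 3.35. The summed linear levels of the muscle list, relative to the 75th percentile, were 200 with serotonin, 643 with TNF-α, 708 in unstimulated pMA and 674 in PIP cells, and those of the adipocyte list were 60.7, 60.4, 59.8 and 71.3. The macrophage list summed to 39.4, 71.7, 78.7 and 57.4, nearly all of it from CD86 with levels of 5.20 and 6.09 for serotonin and TNF-α, and the endothelial list to 12.0, 12.8, 10.6 and 11.5. The muscle sum, most of it from ACTA1, thus moved with the contractile genes, and the list shares DES with them. Of 12 muscle markers with a ratio only 2 were at least 2-fold apart, and the 12 ACTA1 probes with a ratio ran from -2.76 to -0.03. The part of the muscle list in the contractile result was not tested. In a pool, fewer cells of a type and less RNA per cell cannot be told apart.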

How the data were processed

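Total RNA pooled within each group was labeled with Cy3 and hybridised to porcine 4 x 44K oligonucleotide arrays, all on 1 slide. The methods mention a mouse array at one point and porcine arrays with 2 dyes at another, but the deposited files are 1-color porcine arrays. The authors deposited scanner intensity values made by Agilent Feature Extraction 10.7.3.1, with background subtracted. The series table deposited by the authors holds the same values as a ratio to 1 constant per array, close to the 75th percentile of all its spots, on a linear scale without centring.

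From the intensities, control spots and outlier spots (3 with serotonin, 4 with TNF-α) were left out, spots of a probe were averaged, log2 values were centred on the 75th percentile, and a gene name took its brightest probe. Other names were paired with RefSeq symbols (Sscrofa11.1), which named 1020. Within a pool no test is possible, so differences of at least 2-fold are descriptions, and the number of arrays limits the precision. In each direction the 15 symbols with the largest measured ratios, the 5 with the largest bounds and, per list, up to 4 members at least 2-fold apart were named, and further members after their values were seen. The comparison, its members and the 41 lists were chosen with earlier results of these data known. Python 3.11.15, R 4.3.3 and limma 3.58.1 were used, and the ratio step was tested on simulated data. Probe positions in the genome were not used here. Some members of the lists are counted but not reported here by name.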

Additional observations from a re-analysis of the deposited data

How the results depend on the processing

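No paired analysis was possible because each stimulus has 1 array. Under 12 other settings the gene names higher with TNF-α outnumbered those higher with serotonin. The number at least 2-fold apart was 690 (158 higher with serotonin, 532 with TNF-α) after normexp background correction, whose offset draws dim ratios toward 0, 4452 (1225 and 3227) with no filter on dim probes, 1205 (863 with TNF-α) with probes well above background on both arrays, and 310 (51 and 259) at a 4-fold cutoff. Among names brighter than the median, an alternative chosen after seeing the data, it was 760 (210 and 550). The share higher with serotonin was 22.4% in the comparison as reported, 36.8% with median scaling and 37.4% after quantile normalization. Subtracting a lowess curve of the ratio on the level, also chosen after seeing the data, gave 1946. Of 451 list medians under these settings 412 moved by less than 0.16, the standard deviation of a log2 ratio between repeated spots, and 39 by more. The AHR median lay between 0.32 and 2.06 and the interferon-stimulated median between -1.27 and -1.14. No named gene at least 2-fold apart changed direction. CSN2 lay between -3.81 and -0.85 and NOS2 between -5.46 and -0.71. PROCR lay between -3.04 and -0.33, and CYP1A1, dim with TNF-α, between 6.63 and 9.31. Of the named genes at least 2-fold apart, 17 of 23 lower bounds and 30 of 132 measured ratios came under 2-fold in at least 1 other setting, most often normexp (16 and 22) and median scaling (2 and 11). Signal over background limits every ratio of a dim gene.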
